A study of Mus musculus with 24 samples.

Results

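The aminoacyl-tRNA synthetases made up 36 of the 11590 genes in the deposited count table, 20 coding for enzymes of the cytosol and 16 for enzymes of mitochondria, whose symbols end in 2. They were taken by gene symbol from a fixed list and not by a cutoff on their values, though the list was chosen with earlier results of these data known. All 36 passed the filter on low counts. RNA was sequenced from bone marrow-derived macrophages (BMDMs), macrophages grown out of mouse marrow in culture, made from male C57BL/6 mice. KO cells lacked the G protein-coupled receptor GPR35 and WT cells carried it. The sources used here give neither the age of the mice nor how the deletion was made, and they name no other allele. On day 7 of culture, KO and WT cells received 10 µM lysophosphatidic acid (LPA, a signalling phospholipid) or 10 ng/mL lipopolysaccharide (LPS, a bacterial outer-membrane lipid sensed by TLR4) for 4 h, or stayed untreated (Cont). The 6 groups, KO LPA, WT LPA, KO LPS, WT LPS, KO Cont and WT Cont, had 4 libraries each. The series' title puts the question of whether GPR35 carries the signal of LPA in these cells, and LPS serves as a second stimulus.

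Each synthetase joins 1 kind of amino acid to its tRNA, so the family as a whole supplies the ribosome with charged tRNA. Cytosolic and mitochondrial translation use separate enzymes in most cases. Gars and Kars are known to code for both forms, Eprs codes for a bifunctional enzyme that charges glutamyl and prolyl tRNAs, and mitochondria make glutaminyl-tRNA through Ears2 and an amidotransferase instead of a glutaminyl enzyme. Several cytosolic enzymes sit in a multi-synthetase complex held together by the AIMP scaffold proteins. Many cytosolic synthetase genes are known targets of ATF4, the transcription factor of the integrated stress response, which cells raise when amino acids run short or proteins misfold. In human cells WARS, the tryptophanyl enzyme, is a classic interferon-inducible gene. Macrophages stimulated with LPS are known to change their metabolism and their secretory output widely within hours.

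Total counts were 15167683 to 21461866 per library in KO and 31985119 to 46697165 in WT. Per the labels, KO libraries were read on 1 lane and WT libraries on 2 lanes, so depth, lanes and genotype cannot be told apart in a direct KO against WT comparison. Treatment effects within a genotype do not cross that line. Their difference between the genotypes, tested below as an interaction, does set KO libraries against WT libraries. A shift shared by all libraries of a genotype cancels in it, and other differences of depth or lane need not. Gpr35 had 0 to 4 counts in KO LPA, 0 in each KO LPS and 1 to 5 in KO Cont libraries, against 54 to 122 in WT LPA, 8 to 17 in WT LPS and 107 to 133 in WT Cont libraries, so every library matched its genotype label. The counts of LPA and Cont libraries overlapped within each genotype, so Gpr35 does not check which of them received LPA. All 8 macrophage markers looked for were measured, and their summed level, in CPM (counts scaled to library size and TMM factor), was 30921 to 47250 CPM across the 24 libraries, against 168 to 537 CPM for 8 of 9 neutrophil markers and 5.66 to 27.1 CPM for 5 of 7 stromal markers. No gene from the lists of dendritic, lymphoid, mast or erythroid markers is in the table. A bulk library gives RNA per culture, so fewer cells making a transcript and less of it per cell cannot be told apart.

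5 of the cytosolic members are shown here by the DNA around their start sites, because they carry the motif that the composite element of ATF4 and its C/EBP partners uses. All 5 rose with LPA in WT, and of the 8 cytosolic members with a window but no motif 6 rose and 1 fell. Of all genes 23.5% rose and 21.1% fell. Whether the motif goes with the rise was not tested. The windows run 5′ to 3′ on the gene's strand over 300 bases, from 250 before to 50 after the RefSeq start, in build GRCm38.p6. Capitals mark TGATGNAA or its reverse complement TTNCATCA, both strands having been searched. The windows are Aars at chr8:111033592-111033891 on the plus strand, Yars at chr4:129189653-129189952 on the plus strand, Gars at chr6:55037751-55038050 on the plus strand, Iars at chr13:49681880-49682179 on the plus strand, and Tars at chr15:11399609-11399908 on the minus strand.
Aars: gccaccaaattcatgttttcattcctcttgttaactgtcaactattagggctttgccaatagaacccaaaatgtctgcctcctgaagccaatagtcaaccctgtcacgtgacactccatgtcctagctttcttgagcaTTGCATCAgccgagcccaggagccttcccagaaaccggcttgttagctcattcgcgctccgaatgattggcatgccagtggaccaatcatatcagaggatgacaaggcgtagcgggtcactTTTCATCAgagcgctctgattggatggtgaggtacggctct
Yars: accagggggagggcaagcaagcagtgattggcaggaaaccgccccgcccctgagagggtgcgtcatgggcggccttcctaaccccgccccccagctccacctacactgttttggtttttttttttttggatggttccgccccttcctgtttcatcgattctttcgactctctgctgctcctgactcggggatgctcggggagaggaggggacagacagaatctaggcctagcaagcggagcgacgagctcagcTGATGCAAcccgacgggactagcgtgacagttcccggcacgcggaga
Gars: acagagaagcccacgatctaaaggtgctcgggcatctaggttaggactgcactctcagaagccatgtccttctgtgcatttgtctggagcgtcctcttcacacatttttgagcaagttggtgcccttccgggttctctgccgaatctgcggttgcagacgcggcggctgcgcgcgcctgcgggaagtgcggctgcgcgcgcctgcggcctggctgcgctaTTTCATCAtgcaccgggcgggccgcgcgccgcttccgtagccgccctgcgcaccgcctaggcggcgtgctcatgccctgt
Iars: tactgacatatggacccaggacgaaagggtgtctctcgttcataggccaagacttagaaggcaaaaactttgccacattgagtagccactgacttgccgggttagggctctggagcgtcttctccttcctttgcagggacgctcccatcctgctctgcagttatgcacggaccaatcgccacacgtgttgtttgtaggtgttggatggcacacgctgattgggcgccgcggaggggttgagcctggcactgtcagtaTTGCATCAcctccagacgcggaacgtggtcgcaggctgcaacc
Tars: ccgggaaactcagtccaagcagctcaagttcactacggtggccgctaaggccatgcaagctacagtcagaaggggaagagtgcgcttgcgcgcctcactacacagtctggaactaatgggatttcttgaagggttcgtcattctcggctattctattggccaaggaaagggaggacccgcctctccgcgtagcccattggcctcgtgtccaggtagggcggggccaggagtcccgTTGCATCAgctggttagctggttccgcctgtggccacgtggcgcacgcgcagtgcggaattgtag
The Aars window holds the motif at 2 places and the other windows at 1. The Aars window lies inside the annotated span of the gene, chr8:111027778-111055569, which begins further upstream. The RefSeq promoter table had windows for 27 of the 36 members. Entries were missing for Cars, Hars, Lars, Nars, Rars, Vars, Wars, Hars2 and Pars2. The motif was present in 5 of 13 cytosolic members (38.5%) and in 0 of 14 mitochondrial members, against 1219 of 27025 genes with a window (4.51%) and 255 of 9210 genes that are also in the count table (2.77%). The interferon-stimulated response element, searched as GAAA, any 2 bases and GAAA again, was found among the members only at Qars, and in 3.99% of all genes with a window. A STAT site, TTCNNNGAA, was found in 2 cytosolic members and 1 mitochondrial member and in 9.55% of all genes with a window. The E-box CACGTG was found in 4 cytosolic members (30.8%) and 1 mitochondrial member, against 8.09% of all genes with a window and 12.1% of those in the count table. A match says only that these letters are there.

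Untreated cells set the starting levels. In RPKM (CPM divided by gene length in kilobases, computed here with the table's lengths), the 20 cytosolic members spanned 9.55 to 90.8 in WT Cont with a median of 22.4, and the 16 mitochondrial members had a median of 3.76. Lars2, the mitochondrial leucyl enzyme, stood first of all 36 at 210 ± 35.3 RPKM (SD, n = 4). Nars, the asparaginyl enzyme, followed at 90.8 RPKM, then Qars at 43.9 and Aars at 30.7. The mitochondrial member next to Lars2 was Iars2 at 16.3 ± 0.503 RPKM. Whether all reads counted for Lars2 came from its own transcript was not tested. Ears2 was last at 0.635 RPKM. Without treatment the genotypes did not differ in any member by the test used throughout, edgeR's quasi-likelihood test with Benjamini-Hochberg adjusted p under 0.05. Log2 differences of KO from WT ran from -0.22 to 0.15, 0 of 36 members had an unadjusted p under 0.05, and DESeq2 called 0. Over all genes 0.00863% were called, which is 1 gene, Gpr35, with 314 genes at an unadjusted p under 0.05.

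LPA raised no cytosolic synthetase in KO macrophages and most of them in WT macrophages. In KO cells 0 of 20 cytosolic members rose and 1 fell, where 2.62% of all genes were called, 1.56% up and 1.06% down. In WT cells 15 of 20 rose and 1 fell, where 44.6% of all genes were called, 23.5% up and 21.1% down. The median log2 change of the cytosolic members was -0.11 in KO and 0.29 in WT, beside -0.01 for all genes in each genotype. Scaling by library totals alone, in place of TMM factors, gave 12 rises and 1 fall among the cytosolic members in WT, and rises as 40.3% in place of 52.7% of all called genes.

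**Figure D1:**
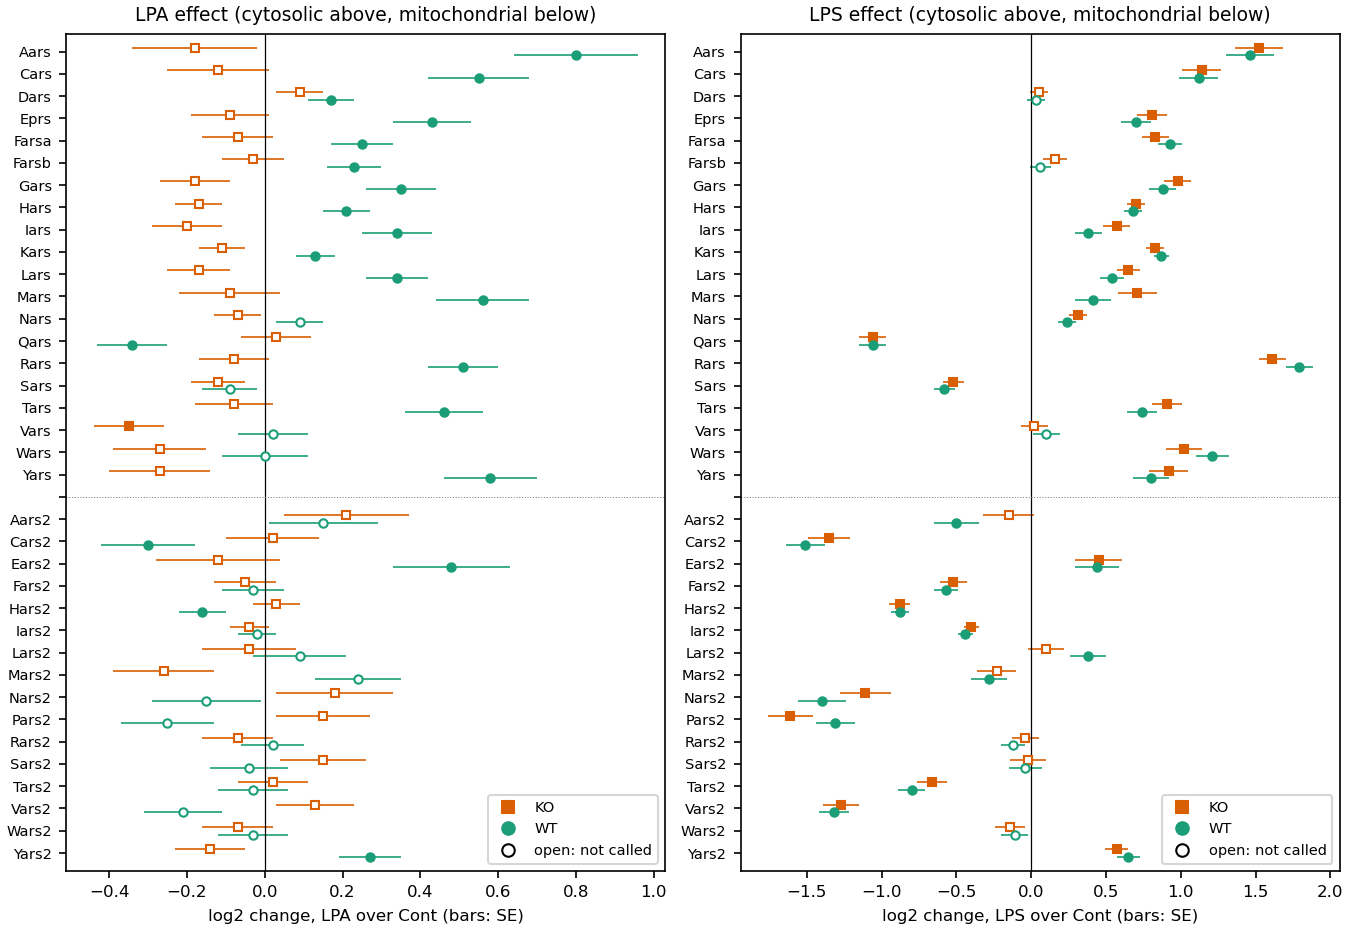
Log2 change over Cont of each of the 36 synthetases with LPA (left panel) and LPS (right panel), in KO (squares) and WT (circles), from 4 libraries per group; bars are the standard error, filled symbols passed the test, and cytosolic members stand above mitochondrial ones. With LPA 0 of 20 cytosolic members are filled and right of 0 in KO and 15 in WT, while with LPS 15 of 20 are so in each genotype, where scaling by library totals turns Nars in KO and Iars, Lars, Mars and Nars in WT to the left.

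Aars, which charges tRNA with alanine, had the largest change with LPA among the members in WT. Its level was 86.1, 122, 104 and 92.4 CPM in KO LPA libraries and 95.3, 135, 123 and 107 CPM in KO Cont libraries. In WT it was 236, 243, 138 and 174 CPM with LPA, against 149, 117, 93.1 and 96.6 CPM in WT Cont. The KO ranges overlapped, and in WT only the lowest LPA library, replicate 3, lay below the highest Cont library, replicate 1. The log2 change was -0.18 ± 0.16 (SE, adjusted p = 0.74) in KO and 0.80 ± 0.16 (adjusted p = 5.3e-04) in WT, which is 1.74-fold. Exons of Aars overlap those of Exosc6 on the same strand over 1326 bases, and the sources used here do not give how such reads were assigned.

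Yars, the tyrosyl enzyme, gave the same picture at a lower level. KO LPA libraries had 22.2, 25.8, 23.6 and 21.6 CPM, against 24.5, 32.1, 29.8 and 25.9 CPM in KO Cont. WT LPA libraries had 48.5, 47.8, 30.3 and 37.8 CPM, against 33.3, 28.8, 23.6 and 24.2 CPM in WT Cont. Again WT LPA replicate 3 was the only one inside the Cont range. The log2 change was -0.27 ± 0.13 (adjusted p = 0.41) in KO and 0.58 ± 0.12 (adjusted p = 7.5e-04) in WT.

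Mars charges the methionine that starts and extends proteins. It was at 33.8, 42.1, 37.6 and 31.4 CPM in KO LPA and 33.2, 47.3, 40.0 and 33.8 CPM in KO Cont. With LPA in WT it was at 64.0, 67.6, 45.9 and 54.6 CPM, against 47, 41.0, 33.7 and 36.0 CPM in WT Cont. Its log2 change was -0.09 ± 0.13 (adjusted p = 0.86) in KO and 0.56 ± 0.12 (adjusted p = 0.0011) in WT, and the WT ranges overlapped through LPA replicate 3 and Cont replicate 1. Cars, the cysteinyl enzyme, was at 36.3, 47.1, 44.1 and 36.0 CPM in KO LPA and 36.5, 49.7, 46.3 and 44.9 CPM in KO Cont. It was at 74.2, 75.8, 50.8 and 59.6 CPM in WT LPA, against 55.0, 45.4, 39.2 and 38.4 CPM in WT Cont. The change was -0.12 ± 0.13 (adjusted p = 0.81) in KO and 0.55 ± 0.13 (adjusted p = 0.0016) in WT, with KO and WT ranges that each overlapped.

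The smallest adjusted p among the members in WT belonged to Rars, the arginyl enzyme of the multi-synthetase complex. KO LPA libraries had 47.9, 50.8, 48.1 and 48.5 CPM, against 46.2, 58.0, 49.6 and 53.1 CPM in KO Cont. Its 4 WT LPA libraries had 86.7, 84.5, 60.9 and 70.0 CPM, against 57.3, 54.6, 49.5 and 51.0 CPM in WT Cont, and the WT ranges did not overlap. The log2 change was -0.08 ± 0.09 (adjusted p = 0.82) in KO and 0.51 ± 0.09 (adjusted p = 1.2e-04) in WT. The other cytosolic members that rose in WT were Tars (0.46), Eprs (0.43), Gars (0.35), Iars and Lars (0.34 each), Farsa (0.25), Farsb (0.23), Hars (0.21), Dars (0.17) and Kars (0.13). Only Dars and Rars among the 20 had WT LPA and WT Cont libraries fully apart, and the share of all genes so apart was not counted. Nars, Sars, Vars and Wars did not pass the test in WT, with log2 changes of 0.09, -0.09, 0.02 and 0.00.

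Some of these calls rest on few libraries. Called in WT with each library left out in turn were 13 of the 20 members: Aars, Cars, Eprs, Gars, Hars, Iars, Lars, Mars, Rars, Tars, Yars, Qars and Yars2. Without WT LPA replicate 2, or without WT Cont replicate 3, 13 members were called. Dars, Farsa and Farsb lost the call without WT LPA replicate 1, WT LPA replicate 2 or WT Cont replicate 3, with adjusted p of 0.057 to 0.10. Kars went to 0.18 and Cars2 to 0.11 without WT Cont replicate 4, and Hars2 to 0.15 without WT LPA replicate 2. Ears2 went to 0.053 without WT Cont replicate 3 and to 0.051 without WT LPA replicate 2. Vars, the valyl enzyme and the 1 member that fell in KO (-0.35 ± 0.09, adjusted p = 0.034), lost its call without any of KO LPA replicates 1, 2 and 3 or KO Cont replicates 1, 3 and 4, with an adjusted p of 0.16 without KO Cont replicate 4.

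Qars, the glutaminyl enzyme, at chr9:108508005-108515941 on the plus strand, went the other way in WT. It was at 128, 114, 123 and 129 CPM in KO LPA and 133, 107, 119 and 125 CPM in KO Cont. In WT it was at 88.0, 87.1, 113 and 89.2 CPM with LPA, against 111, 117, 130 and 119 CPM in WT Cont. WT LPA replicate 3 was the one library inside the Cont range. The log2 change was 0.03 ± 0.09 (adjusted p = 0.94) in KO and -0.34 ± 0.09 (adjusted p = 0.0034) in WT.

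**Figure D2:**
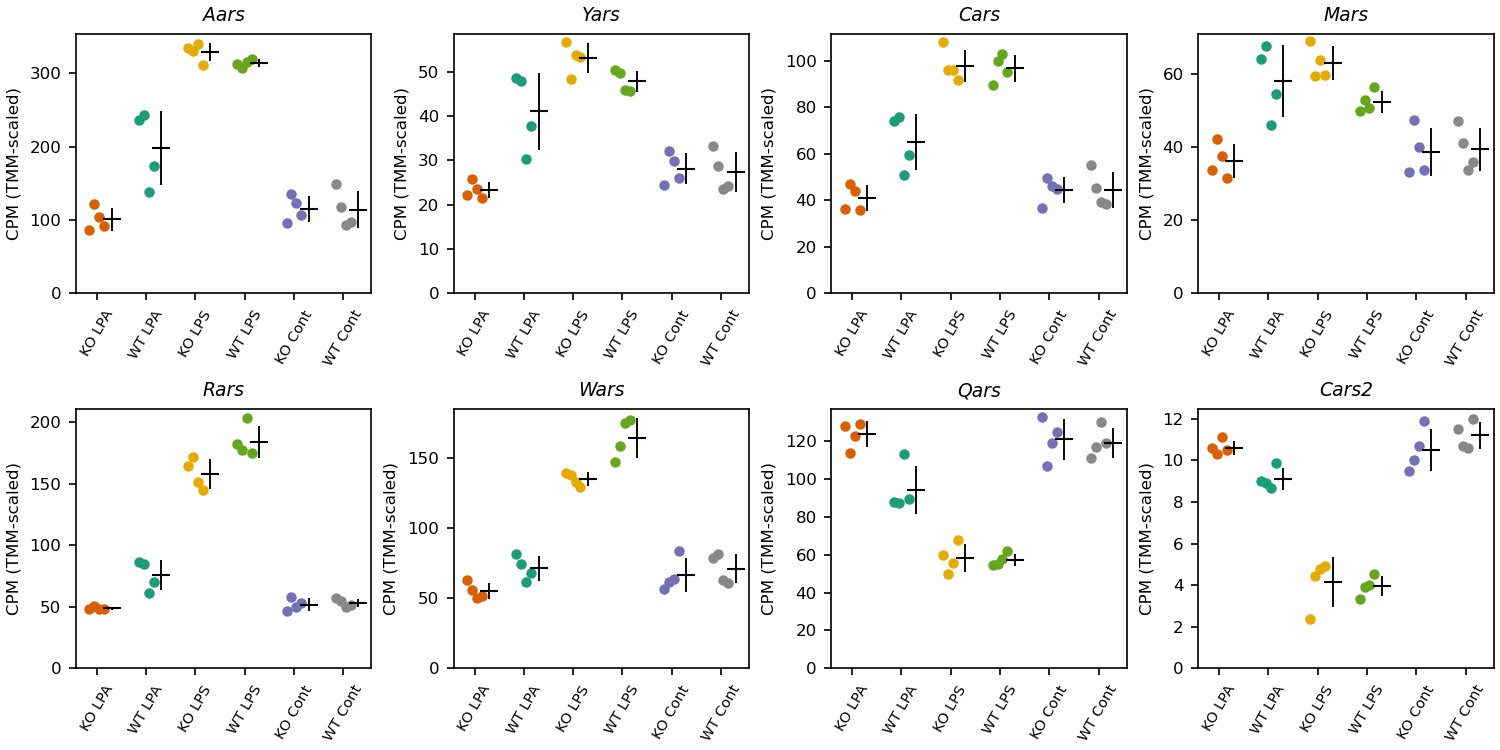
TMM-scaled CPM of 8 synthetases in all 24 libraries (points), by group with KO left of WT for LPA, LPS and Cont; crosses are the mean and SD of 4 libraries. Aars, Yars, Mars and Cars are lower in KO LPA than in WT LPA, with all 4 KO libraries below all 4 WT libraries, while Qars is higher in KO LPA.

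Few mitochondrial members changed with LPA. In KO 0 of 16 passed the test in either direction, where 2.62% of all genes were called, and in WT 2 rose and 2 fell, where 44.6% were called, with a median log2 change of -0.01 in KO and -0.03 in WT. Ears2, the glutamyl enzyme, rose by 0.48 ± 0.15 (adjusted p = 0.011) and Yars2 by 0.27 ± 0.08 (adjusted p = 0.0086) in WT. Ears2 was at 6.45, 6.69, 4.54 and 5.50 CPM in WT LPA, against 5.17, 4.04, 3.04 and 4.33 CPM in WT Cont, and these ranges overlapped. Cars2 was at 9.0, 8.90, 8.65 and 9.85 CPM in WT LPA, against 11.5, 10.7, 10.6 and 12 CPM in WT Cont, with no overlap, a log2 change of -0.30 ± 0.12 (adjusted p = 0.043). Hars2 was at 20.5, 19.5, 25.2 and 20.7 CPM in WT LPA, against 23.3, 23.7, 24 and 24.7 CPM in WT Cont, where LPA replicate 3 stood above every Cont library. Its log2 change was -0.16 ± 0.06 (adjusted p = 0.037). With the replicate number as a block, Mars2 (0.24, adjusted p = 0.044) and Pars2 (-0.25, adjusted p = 0.032) were also called in WT.

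The difference between the LPA effects was tested as an interaction, the log2 change in KO minus that in WT. Among cytosolic members 13 were lower and 1 higher in KO, and among mitochondrial members 3 were lower and 0 higher, where 28.5% of all genes were called, 12.7% higher and 15.8% lower. The median interaction was -0.45 for cytosolic, 0.02 for mitochondrial and 0.01 for all genes, and 19 of 20 cytosolic values were below 0. Aars led at -0.98 ± 0.23 (adjusted p = 0.0038), then Yars at -0.85 ± 0.18 (adjusted p = 0.0020), Cars at -0.67 ± 0.18 (adjusted p = 0.010) and Mars at -0.65 ± 0.18 (adjusted p = 0.010). Qars was the 1 member with a positive call, at 0.37 ± 0.12 (adjusted p = 0.029). Wars and Wars2 did not pass, at -0.28 ± 0.16 and -0.04 ± 0.13. The mitochondrial members below 0 were Ears2 (-0.60), Mars2 (-0.50) and Yars2 (-0.40). Under library totals the cytosolic split was 11 lower and 1 higher and the mitochondrial split 1 lower and 3 higher, and the share of positive values among all called genes was 59.9% in place of 44.6%.

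For 12 of these 17 members the call held with each library left out in turn. Ears2 went to an adjusted p of 0.11 without WT LPA replicate 2 and lost the call in 16 of the 24 omissions. Qars went to 0.068 and Kars to 0.056 without WT LPA replicate 2, Vars to 0.073 without KO Cont replicate 4, and Mars2 to 0.084 without KO Cont replicate 3. With the replicate block, Farsa (-0.31, adjusted p = 0.024), Farsb (-0.25, adjusted p = 0.014) and Pars2 (0.40, adjusted p = 0.031) were called as well.

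KO LPA was also set directly against WT LPA. In KO LPA 17 cytosolic members were lower and 1 higher than in WT LPA, and 3 mitochondrial members were lower and 3 higher, where 50.3% of all genes were called, 24.4% higher and 25.9% lower. The median log2 difference was -0.40 for cytosolic and 0.01 for mitochondrial members and for all genes. For 14 of the 20 cytosolic members every KO LPA library was below, or for Qars above, every WT LPA library. The share of all genes with such separate libraries was not counted, so the 14 cannot be set against it. Aars differed by -0.97 ± 0.16 (adjusted p = 6.2e-05), Rars by -0.63 ± 0.09 (adjusted p = 9.8e-06) and Qars by 0.39 ± 0.09 (adjusted p = 8.6e-04). Dars (-0.06) and Sars (-0.01) did not pass. This comparison and the interaction share their LPA libraries. Under library totals 15 cytosolic members were lower and 1 higher, 2 mitochondrial members were lower and 5 higher, and higher values were 67.4% in place of 48.4% of all called genes. Of the 24 members called here, 19 stayed called with each library left out in turn. Wars went to an adjusted p of 0.052 without WT LPA replicate 1, Nars to 0.16 and Vars2 to 0.14 without WT LPA replicate 2, and Farsb to 0.052 and Mars2 to 0.096 without KO LPA replicate 1.

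LPS raised most cytosolic members in each genotype. In KO 15 of 20 rose and 2 fell, where 82.3% of all genes were called, 39.3% up and 43.0% down. In WT 15 rose and 2 fell, where 84.2% were called, 40.6% up and 43.6% down. The 17 called of 20 were thus near the share of all genes called, and the rises were above the share of all genes that rose. Their median log2 change was 0.76 in KO and 0.69 in WT, beside -0.05 and -0.04 for all genes. LPS libraries had TMM factors of 0.739 to 0.840 against 1.11 to 1.16 in Cont, so the scaling matters here. With library totals alone the median of all genes moved to -0.55 in KO and -0.59 in WT, and rises were 24.1% in place of 47.7% (KO) and 23.3% in place of 48.3% (WT) of all called genes. The cytosolic split then was 11 rises and 6 falls in KO and 8 rises and 7 falls in WT, with the sign of Nars turned in KO and those of Iars, Lars, Mars and Nars turned in WT. The gap between the cytosolic and mitochondrial medians does not depend on the scaling and was 1.08 in KO and 1.16 in WT.

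Rars, at chr11:35808381-35834528 on the minus strand, rose most with LPS. It was at 164, 172, 151 and 145 CPM in KO LPS and 46.2, 58.0, 49.6 and 53.1 CPM in KO Cont. In WT it was at 182, 177, 203 and 175 CPM with LPS, against 57.3, 54.6, 49.5 and 51.0 CPM in WT Cont. Its log2 change was 1.61 (adjusted p = 1.9e-13) in KO and 1.79 (adjusted p = 1.6e-14) in WT, with no overlap in either genotype. Aars followed, at 334, 331, 340 and 312 CPM in KO LPS and 313, 307, 315 and 319 CPM in WT LPS, far above all 8 Cont libraries given above. Its log2 change was 1.52 (adjusted p = 2.0e-08) in KO and 1.46 (adjusted p = 2.7e-08) in WT. Cars was at 108, 96.1, 96.0 and 91.7 CPM in KO LPS and 89.5, 99.7, 103 and 95.1 CPM in WT LPS. It rose by 1.14 (adjusted p = 4.2e-08) in KO and 1.12 (adjusted p = 3.2e-08) in WT on the log2 scale, again without overlap.

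Wars, at chr12:108860030-108894175 on the minus strand, passed the test with LPS and not with LPA. It was at 139, 138, 133 and 129 CPM in KO LPS and 56.6, 61.2, 63.8 and 83.8 CPM in KO Cont. In WT it was at 147, 158, 175 and 177 CPM with LPS, against 78.7, 81.4, 62.7 and 61 CPM in WT Cont. It rose with LPS by 1.02 (adjusted p = 4.3e-08) in KO and 1.21 (adjusted p = 1.7e-09) in WT on the log2 scale. With LPA it was at 63.2, 55.5, 49.8 and 51.4 CPM in KO and 81.7, 74.0, 61.2 and 67.9 CPM in WT, and did not pass the test against Cont in KO (-0.27, adjusted p = 0.32) or WT (0.00, adjusted p = 0.98). Its mitochondrial counterpart Wars2 stayed between 8.51 and 12.1 CPM in all 24 libraries and passed no test of LPA or LPS, though under library totals it was called lower with LPS (-0.63 in KO and -0.67 in WT).

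Qars and Sars were the cytosolic members that fell with LPS. Qars was at 59.6, 49.8, 55.7 and 67.6 CPM in KO LPS and 54.5, 55.3, 57.5 and 61.8 CPM in WT LPS. All 8 values lay below every Cont value of their genotype, and the log2 change was -1.06 in each (adjusted p = 2.4e-10 in KO and 1.1e-10 in WT). Sars, the seryl enzyme, was at 75.2, 60.3, 79.9 and 74.5 CPM in KO LPS, against 106, 99.9, 109 and 101 CPM in KO Cont. It was at 64.3, 69.2, 67.0 and 73.2 CPM in WT LPS, against 105, 106, 108 and 92.2 CPM in WT Cont. It fell by 0.52 (adjusted p = 6.3e-07) in KO and by 0.58 (adjusted p = 6.4e-08) in WT on the log2 scale, with no overlap. Dars, Farsb and Vars did not pass the test of LPS in either genotype. Farsb in KO depended on the setting. It was called up with the replicate block (0.16, adjusted p = 0.014), median-ratio factors (0.024), DESeq2 (0.025), thinned counts (0.038) or only the compared groups (0.042), and down under library totals (-0.34).

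More mitochondrial members fell than rose with LPS. In KO 8 of 16 fell and 2 rose, where 43.0% of all genes fell and 39.3% rose, and in WT 10 fell and 3 rose, where 43.6% fell and 40.6% rose, with median log2 changes of -0.31 in KO and -0.47 in WT. Cars2, the cysteinyl enzyme, was at 2.37, 4.45, 4.78 and 4.94 CPM in KO LPS, against 9.49, 10.0, 10.7 and 11.9 CPM in KO Cont. It was at 3.33, 3.92, 4.00 and 4.51 CPM in WT LPS, against 11.5, 10.7, 10.6 and 12 CPM in WT Cont. Neither pair of ranges overlapped, and the log2 change was -1.35 (adjusted p = 5.3e-09) in KO and -1.51 (adjusted p = 1.4e-10) in WT. Cars2 lies at chr8:11514017-11550781 on the minus strand, and its exons overlap Naxd on the opposite strand over 422 bases.

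Nars2, Vars2 and Pars2, the asparaginyl, valyl and prolyl enzymes of mitochondria, fell in the same manner. Nars2 was at 1.81, 1.55, 1.94 and 2.67 CPM in KO LPS, against 4.19, 4.44, 4.31 and 4.22 CPM in KO Cont, and at 1.68, 1.74, 1.08 and 1.90 CPM in WT LPS, against 4.84, 3.83, 3.98 and 4.28 CPM in WT Cont. Vars2 was at 3.49, 4.24, 3.33 and 3.77 CPM in KO LPS, against 9.22, 7.82, 10.2 and 8.45 CPM in KO Cont, and at 4.41, 4.14, 3.03 and 3.63 CPM in WT LPS, against 10.0, 9.37, 9.11 and 9.42 CPM in WT Cont. Pars2 was at 1.53, 1.77, 1.59 and 1.33 CPM in KO LPS, against 4.46, 5.97, 4.26 and 4.47 CPM in KO Cont, and at 2.03, 1.48, 1.76 and 2.32 CPM in WT LPS, against 5.37, 4.59, 4.48 and 4.41 CPM in WT Cont. Every LPS library was below every Cont library of its genotype in all 3 genes. The log2 changes in KO and WT were -1.11 and -1.40 for Nars2, -1.27 and -1.32 for Vars2, and -1.61 and -1.31 for Pars2. These genes are low, with 17 to 126 counts per LPS library, which limits the precision of a single library.

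The mitochondrial members that rose with LPS were Ears2 and Yars2 in each genotype and Lars2 in WT. Yars2, the tyrosyl enzyme, was at 7.60, 9.33, 8.53 and 8.95 CPM in KO LPS, against 5.30, 6.13, 5.83 and 5.90 CPM in KO Cont. It was at 9.04, 9.99, 9.05 and 8.34 CPM in WT LPS, against 6.04, 6.40, 5.32 and 5.39 CPM in WT Cont, and its ranges were apart in each genotype. Lars2 changed by 0.10 in KO, without passing the test, and by 0.38 in WT. Under library totals the values of Ears2 in each genotype and of Lars2 in WT turned negative, and Yars2 lost its call in KO (0.08, adjusted p = 0.44) and WT (0.10, adjusted p = 0.25), so that 0 mitochondrial members rose, with 14 falls in KO and 13 in WT. Without KO Cont replicate 1 the call of Ears2 in KO was lost (adjusted p = 0.061), and without WT Cont replicate 3 that in WT (adjusted p = 0.051). Mars2 fell in WT (-0.28) but lost the call in 6 of the 24 omissions, with an adjusted p of 0.095 without WT LPS replicate 3, and with DESeq2 (0.078), median-ratio factors (0.060) and thinned counts (0.22).

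On the TMM scale, macrophage markers moved with LPS as well. Their summed level was 43550 to 47250 CPM in KO LPS and 44247 to 45520 CPM in WT LPS, against 30921 to 38277 CPM in the other groups, and 4 of 5 osteoclast markers summed to 45.8 to 81.4 CPM in LPS libraries against 92.9 to 300 CPM in the others. TMM factors were 0.739 to 0.840 in LPS libraries against 1.11 to 1.16 in Cont, and the sums were not taken under library totals. The higher macrophage sum with LPS thus rests on that scaling. The part of these markers in the results was not tested.

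The response of the synthetases to LPS did not differ detectably between genotypes. The interaction called 0 of 36 members, and 0 of them had an unadjusted p under 0.05. It also called 0 of all genes, with 698 at an unadjusted p under 0.05, and DESeq2 called 0 members. Set directly against each other, KO LPS and WT LPS differed in 0 members, where 2.85% of all genes were called, 0.690% higher and 2.16% lower. Log2 differences ran from -0.29 to 0.31, 5 members (Iars, Lars, Mars, Rars and Wars) had an unadjusted p under 0.05, and DESeq2 called 0. Of all genes, 24.2% of those called were higher in KO LPS, and 78.2% under library totals. For 6 cytosolic members the KO LPS and WT LPS ranges were apart without a call, and the share of all genes so apart was not counted.

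**Figure D3:**
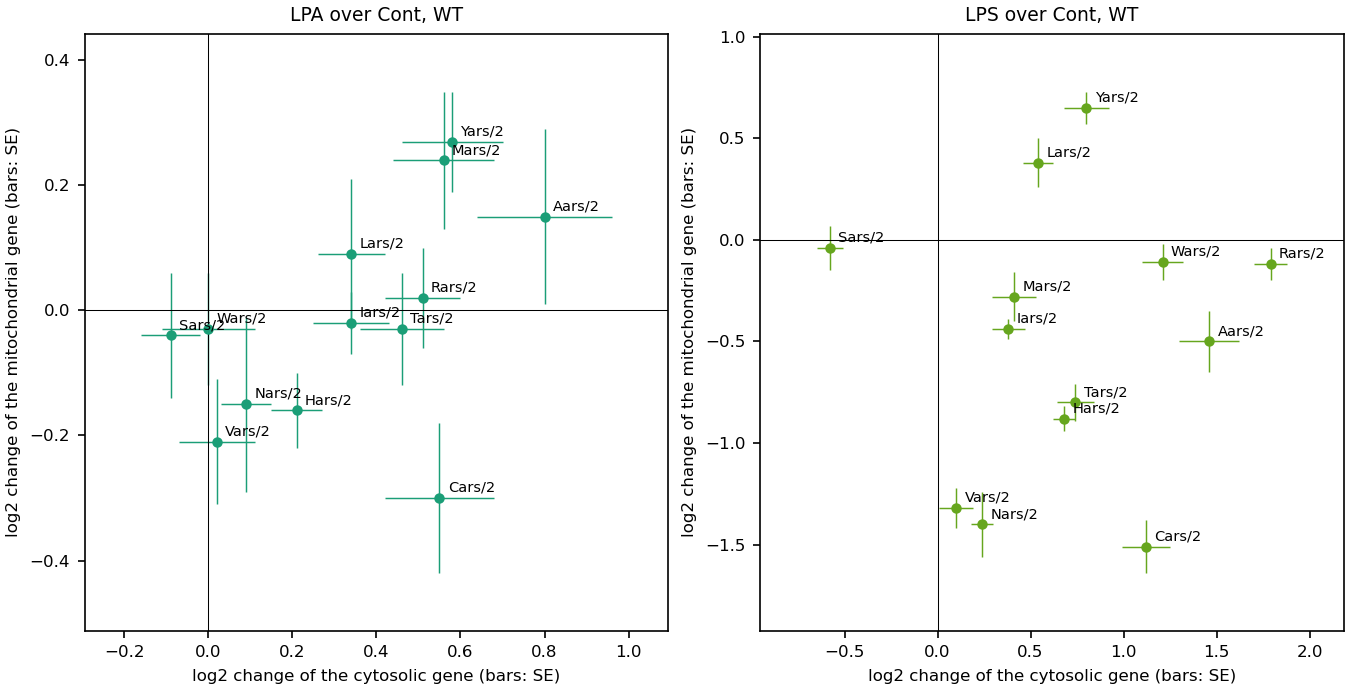
Log2 change over Cont in WT of the cytosolic gene (horizontal axis) against that of its mitochondrial counterpart (vertical axis) for 13 amino acids, with LPA (left) and LPS (right); bars are the standard error. Pairs in the lower right have a rising cytosolic and a falling mitochondrial value, as Cars with Cars2 (0.55 and -0.30 with LPA, 1.12 and -1.51 with LPS), and under library totals Iars, Lars, Mars and Nars would lie left of 0 with LPS.

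For 13 amino acids both a cytosolic and a mitochondrial enzyme were measured under symbols that differ by the trailing 2, and within such a pair the scaling of a library cancels. With LPA the cytosolic member had the higher log2 change in 1 of 13 pairs in KO and 12 of 13 in WT. With LPS it had the higher change in 12 of 13 pairs in KO and in WT. Calls in opposite directions, cytosolic up and mitochondrial down, were found with LPA for 2 pairs in WT, Cars with Cars2 and Hars with Hars2. With LPS they were found for 5 pairs in KO (Cars, Hars, Iars, Nars and Tars with their counterparts) and for 7 in WT (these and Aars and Mars with theirs). Of all genes 23.5% rose and 21.1% fell with LPA in WT. With LPS 39.3% rose and 43.0% fell in KO, and 40.6% rose and 43.6% fell in WT. How often other pairs of genes had opposite calls was not counted, so the numbers of opposite pairs have no background to be set against. Under library totals the changes with LPS of Nars in KO and of Iars, Mars and Nars in WT turned negative. Iars in KO (0.08, adjusted p = 0.37) and Tars in WT (0.19, adjusted p = 0.060) lost their calls, while the order within each pair stayed. Of the opposite pairs, 3 of 5 in KO (Cars, Hars and Tars) and 3 of 7 in WT (Aars, Cars and Hars) then remained, and with others gained by that scaling 6 pairs in KO and 5 in WT were opposite.

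Hars and Hars2 are neighbours on opposite strands whose exons overlap over 195 bases. With LPS Hars was at 83.7, 76.2, 78.1 and 76.6 CPM in KO and 80.8, 73.8, 75.1 and 73.8 CPM in WT. In Cont it was at 45.9, 51.8, 49.4 and 46.6 CPM in KO and 50.2, 46.6, 46.4 and 45.9 CPM in WT. Hars2 had 13.4, 13.6, 13.0 and 12.9 CPM in KO LPS and 12.7, 13.3, 12.6 and 13.4 CPM in WT LPS, against 24.5, 25.3, 23.9 and 23.6 CPM in KO Cont and the WT Cont values given with LPA. The histidyl pair thus diverged in every LPS library, Hars by 0.70 in KO and 0.68 in WT and Hars2 by -0.88 in each. With LPA Hars was at 40.4, 46.2, 43.4 and 41.9 CPM in KO and 59.7, 56.5, 48.8 and 54.1 CPM in WT, where it rose by 0.21 ± 0.06 (adjusted p = 0.0046) with overlapping ranges.

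The threonyl pair shows the same at a different level. Tars was at 78.9, 76.1, 79.0 and 72.0 CPM in KO LPS and 72.4, 69.7, 68.1 and 67.5 CPM in WT LPS, against 36.8, 45.1, 43.8 and 37.1 CPM in KO Cont and 46.3, 42.1, 37.5 and 40.3 CPM in WT Cont. Tars2 was at 12.3, 11.1, 13.1 and 14.8 CPM in KO LPS and 13.3, 11.5, 9.87 and 12.4 CPM in WT LPS, against 18.9, 20.4, 18.7 and 22.9 CPM in KO Cont and 22.3, 20, 19.3 and 20.6 CPM in WT Cont. All of these ranges were apart. Log2 changes in KO and WT were 0.91 and 0.74 for Tars and -0.66 and -0.80 for Tars2.

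In the isoleucyl pair, Iars was at 122, 109, 117 and 110 CPM in KO LPS and 98.3, 98.1, 93.2 and 96.0 CPM in WT LPS, against 69.8, 87.6, 75.4 and 74.9 CPM in KO Cont and 85.6, 76.3, 69.8 and 65.5 CPM in WT Cont. Iars2 was at 42.8, 43.3, 44.0 and 47.6 CPM in KO LPS and 41.2, 42.5, 41.7 and 45.5 CPM in WT LPS, against 59.0, 60.8, 59.1 and 54.7 CPM in KO Cont and 58.4, 58.5, 59.1 and 55.2 CPM in WT Cont. None of these ranges overlapped, and log2 changes in KO and WT were 0.57 and 0.38 for Iars and -0.40 and -0.44 for Iars2, whose exons overlap Rab3gap2 on the opposite strand over 2034 bases. Nars was at 324, 291, 301 and 285 CPM in KO LPS and 268, 287, 295 and 287 CPM in WT LPS, against 236, 256, 242 and 232 CPM in KO Cont and 264, 239, 236 and 224 CPM in WT Cont, log2 changes of 0.31 and 0.24.

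Aars2 and, with the limits given above, Mars2 were called in WT in the direction opposite to their cytosolic counterparts. Aars2 did not pass in KO (-0.15), and was at 4.34, 3.03, 3.33 and 4.93 CPM in WT LPS, against 6.04, 5.33, 5.39 and 5.34 CPM in WT Cont (-0.50). Mars2 did not pass in KO (-0.23), and was at 2.80, 2.70, 2.43 and 2.64 CPM in WT LPS, against 3.43, 3.26, 3.24 and 2.88 CPM in WT Cont (-0.28). Both sets of WT ranges were apart. Mars itself was at 69.1, 59.5, 63.9 and 59.6 CPM in KO LPS and 49.9, 52.8, 50.6 and 56.5 CPM in WT LPS, log2 changes of 0.71 and 0.41, and its exons share 68 bases with Ddit3 on the opposite strand.

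The summed level of the 20 cytosolic members puts these changes in proportion. It was 1350 ± 70.8 CPM in KO LPA and 1743 ± 186 CPM in WT LPA, 2288 ± 76.2 CPM in KO LPS and 2236 ± 32.8 CPM in WT LPS, and 1461 ± 73.0 CPM in KO Cont and 1456 ± 118 CPM in WT Cont (SD, n = 4 each). The LPA mean was 0.924 times the Cont mean in KO and 1.2 times in WT, and the LPS mean 1.57 times in KO and 1.54 times in WT. In WT the LPA sums of 1535 to 1914 CPM overlapped the Cont sums of 1341 to 1608 CPM, and set against the Cont library of the same number LPA was higher in 0 of 4 KO and 4 of 4 WT pairs. No LPS sum overlapped the Cont sums of its genotype. The mitochondrial members without Lars2, which outweighs all others, summed to 199 CPM in KO LPA and 195 in WT LPA, 146 in KO LPS and 142 in WT LPS, and 199 in KO Cont and 200 in WT Cont.

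As an unscaled share of all counts, which the TMM factors do not enter, cytosolic members took 0.157% in KO LPA and 0.188% in WT LPA, 0.186% in KO LPS and 0.171% in WT LPS, against 0.167% in KO Cont and 0.164% in WT Cont. The WT LPS share was thus near the WT Cont share on that scale. The mitochondrial members without Lars2 took 0.0119% in KO LPS and 0.0109% in WT LPS, against 0.0227% in KO Cont and 0.0225% in WT Cont.

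**Figure D4:**
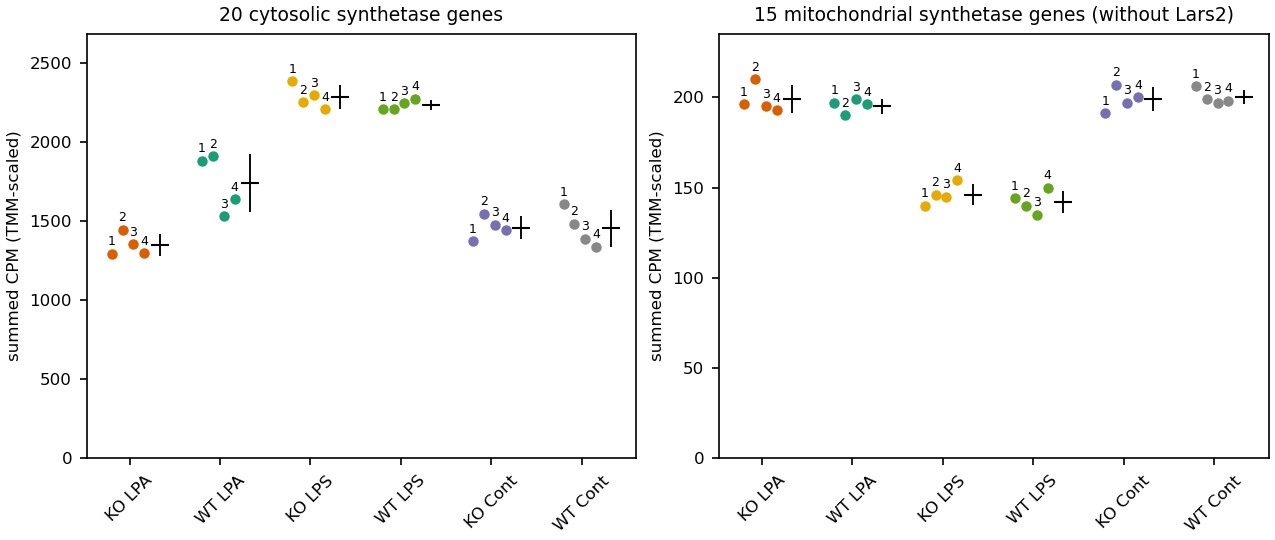
Summed CPM of the 20 cytosolic members and of the 15 mitochondrial members without Lars2 in each library (points, numbered by replicate) by group, KO left of WT for LPA, LPS and Cont; crosses are the mean and SD of 4 libraries. The mean cytosolic sum is 1350 CPM in KO LPA against 1461 CPM in KO Cont, and 1743 CPM in WT LPA against 1456 CPM in WT Cont.

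The cytosolic set was also counted by complex and by catalytic class, to be read against the 23.5% of all genes that rose and 21.1% that fell with LPA in WT and the 15.8% lower in the interaction. With LPA in WT 7 of 8 complex enzymes rose and 1 fell (Qars), and 8 of 12 enzymes outside it rose. In the LPA interaction 6 of 8 complex enzymes were lower and 1 higher in KO, and 7 of 12 outside it were lower. By catalytic class, 7 of 10 class I and 8 of 10 class II enzymes rose with LPA in WT. The scaffolds and other tRNA charging partners were mixed. Of 11 such genes, 0 passed with LPA in KO, near the 2.62% of all genes called. In WT 3 rose and 3 fell, near the 44.6% of all genes called. Eef1e1, a scaffold component of the complex, rose by 0.66 ± 0.15 (adjusted p = 0.0011), Yrdc, which makes a tRNA modification, by 0.55 ± 0.11 (adjusted p = 3.8e-04) and Xpot, the tRNA exporter, by 0.23 ± 0.05 (adjusted p = 9.1e-04). Tarsl2, a cytosolic threonyl-tRNA synthetase-like gene that is not a member, fell by 0.72 (adjusted p = 1.9e-04) and was higher in KO in the interaction (0.82 ± 0.19, adjusted p = 0.0034). With LPS 2 of the 11 rose and 5 fell in each genotype, below the 82.3% (KO) and 84.2% (WT) of all genes called.

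Genes that act after charging were read beside the synthetases. Of all genes, 2.62% were called with LPA in KO and 44.6% in WT, and 82.3% in KO and 84.2% in WT with LPS. Of 5 cytosolic elongation factors, 0 passed with LPA in KO, and in WT 0 rose and 2 fell, Eef2 by 0.31 (adjusted p = 0.019) and Eef1a1 by 0.18 (adjusted p = 0.046). With LPS 1 rose and 4 fell in each genotype. Of 16 partners of mitochondrial translation, 0 passed with LPA in KO, and in WT 3 rose and 3 fell. Qrsl1, a subunit of the amidotransferase that works after Ears2, was at 6.48 CPM in WT LPA against 4.80 CPM in WT Cont (0.43 ± 0.12, adjusted p = 0.0045), and its partner subunit Gatc fell by 0.20 (adjusted p = 0.015). With LPS 2 of the 16 rose and 9 fell in KO, and 1 rose and 10 fell in WT.

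Genes of amino acid supply and of the ATF4 programme were counted as well. Of 21 measured genes of the integrated stress response, 0 passed with LPA in KO, near the 2.62% of all genes called. In WT 9 rose and 2 fell, where 44.6% of all genes were called, 23.5% up and 21.1% down. Atf4 itself was at 213 CPM in WT LPA against 142 CPM in WT Cont (0.59 ± 0.12, adjusted p = 5.5e-04), and Asns, asparagine synthetase, was at 44.7 against 19.5 CPM (1.20 ± 0.25, adjusted p = 9.2e-04). In the interaction 6 of the 21 were lower and 1 higher in KO, where 28.5% of all genes were called, 15.8% lower and 12.7% higher. Among the lower were Atf4 (-0.71 ± 0.17, adjusted p = 0.0046), Asns (-1.46 ± 0.38, adjusted p = 0.0081) and Ppp1r15a, the stress-induced eIF2α phosphatase subunit (-0.60 ± 0.14, adjusted p = 0.0045). With LPS the list was mixed. In KO 11 of the 21 rose and 8 fell, and in WT 10 rose and 8 fell, where 82.3% (KO) and 84.2% (WT) of all genes were called.

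Of 14 measured genes of amino acid and one-carbon synthesis, 1 rose with LPA in KO (Got1, 0.55 ± 0.14, adjusted p = 0.037), where 1.56% of all genes rose. In WT 5 rose and 1 fell, where 44.6% of all genes were called, 23.5% up and 21.1% down. Mthfd2, a mitochondrial folate enzyme, was at 94.0 CPM in WT LPA against 45 CPM in WT Cont, and Phgdh, the first enzyme of serine synthesis, at 3.68 against 1.98 CPM. Their interactions were -1.35 ± 0.30 (adjusted p = 0.0031) and -1.31 ± 0.36 (adjusted p = 0.010). Of 16 measured amino acid transporters, 0 passed with LPA in KO, near the 2.62% of all genes called. In WT 10 rose and 2 fell, where 23.5% of all genes rose and 21.1% fell. Slc7a11, the cystine importer, rose by 1.94 ± 0.23 (adjusted p = 2.9e-06) and Slc7a8 by 1.5 ± 0.18 (adjusted p = 3.4e-06) in WT, and in the interaction 7 of 16 were lower and 1 higher in KO, where 15.8% and 12.7% of all genes were, Slc7a5 by -1.61 ± 0.37 (adjusted p = 0.0035). With LPS 6 of the 14 synthesis genes rose and 5 fell in KO, and 6 rose and 6 fell in WT. Of the 16 transporters 10 rose and 5 fell in each genotype, where 82.3% (KO) and 84.2% (WT) of all genes were called.

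Interferon-stimulated genes were followed because of Wars. Of 24 measured, 2 fell with LPA in KO (Gbp5 and Cxcl10), where 1.06% of all genes fell, and 21 rose in WT, where 23.5% of all genes rose. In KO all 24 LPA changes were below 0, with a median log2 change of -0.40, as were 6149 of 11590 genes. Without treatment all 24 were lower in KO than in WT, with a median of -0.31, as were 5651 of 11590 genes. Of the 24, 0 were called there, and 9 had an unadjusted p under 0.05 in edgeR's test, against 314 of all genes. In the interaction 22 were lower in KO, where 15.8% of all genes were. With LPS all 24 rose in each genotype, where 39.3% (KO) and 40.6% (WT) of all genes rose.

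LPA and LPS were also set against each other within each genotype. In KO 17 cytosolic members were lower with LPA than with LPS and 2 higher, and 2 mitochondrial members were lower and 9 higher, where 82.5% of all genes were called, 42.8% higher and 39.6% lower. In WT 12 cytosolic members were lower and 4 higher, and 2 mitochondrial members were lower and 10 higher, where 78.9% of all genes were called, 41.1% higher and 37.8% lower. The median log2 difference of the cytosolic members was -0.89 in KO and -0.24 in WT, and that of the mitochondrial members 0.36 in KO and 0.53 in WT. Higher values were 51.9% (KO) and 52.1% (WT) of all called genes, and 75.9% and 80.3% under library totals. The cytosolic split under library totals was 14 lower and 5 higher in KO, and in WT it turned to 4 lower and 12 higher. Farsb, Nars and Vars in KO and Eprs, Hars, Lars, Nars, Tars, Lars2 and Yars2 in WT changed sign under that scaling. With each library left out in turn, 28 of the 30 calls in KO and 21 of the 28 in WT were kept, Farsb and Aars2 being lost in KO and Dars, Eprs, Farsb, Lars, Nars, Tars and Lars2 in WT.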

How the data were processed

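Paired reads of 51 bases from TruSeq Stranded mRNA libraries were measured, per the labels' protocols, and aligned with STAR 2.5.2a to mm10, per the submitters' processing notes. For the step from alignments to counts, tool, strand setting and annotation were not given in the sources used here. The authors deposited whole-number gene counts for 24 libraries, 4 in each of 6 groups, with 11590 genes, of which 9 have no symbol, and 0 columns were left unmapped to a sample. The counts were tested with edgeR 4.0.16 (quasi-likelihood, TMM factors, Benjamini-Hochberg adjustment over all genes) with limma 3.58.1 in R 4.3.3, in 1 fit of all groups with 18 residual degrees of freedom. filterByExpr removed 0 genes, the common coefficient of variation was 9.91%, and the fit was tested on simulated data. CPM and RPKM were computed from the deposited counts, RPKM with the deposited gene lengths. Library totals were 15167683 to 21461866 in KO and 31985119 to 46697165 in WT, so the relative precision of low genes is poorer in KO.

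Nothing in the labels says that replicates came from separate animals, so p-values measure only the spread between these libraries, which may be technical. No pair of libraries in a group was a copy (chi-square over degrees of freedom of 4.11 to 77.4 in 36 pairs). Deviations from group means of same-numbered libraries correlated at 0.11 to 0.77 within KO and at 0.21 to 0.63 between WT LPA and WT Cont, so these were treated as paired when a replicate block is quoted. The other WT pairs, those with LPS, ran from 0.07 to 0.30 and overlapped the KO range, so whether they are paired is unclear. Pairs across genotypes ran from -0.58 to 0.18, so libraries of different genotypes share only a number.

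The members and all gene lists were chosen with earlier results of these data known. Members are given in every library when they were among the 4 largest called rises or falls with LPA or LPS in WT or the 4 largest interactions each way, when a cytosolic and mitochondrial pair was called in opposite directions, and for Wars and Wars2. Rars with LPA, Sars, Ears2 and Yars2 were added after their values were seen. From each related list up to 4 genes with the smallest p were named. Alternatives were median-ratio factors, library totals, no filter or at least 50 counts in 4 libraries, only the compared groups, thinning to 15167683 counts, DESeq2 1.42.0, the replicate block, and each library left out. Promoters and positions are RefSeq's, build GRCm38.p6, and exon overlaps are from GENCODE.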

Additional observations from a re-analysis of the deposited data

Results flagged for a closer look

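The LPA effect differed between KO and WT in 17 members, by the interaction in edgeR's fit (KO log2 change minus WT log2 change, adjusted p in brackets). Cytosolic values were Aars -0.98 (0.0038), Yars -0.85 (0.0020), Cars -0.67 (0.010), Mars -0.65 (0.010), Rars -0.59 (0.0023), Iars -0.55 (0.0042), Gars -0.54 (0.0033), Tars -0.54 (0.0078), Eprs -0.53 (0.010), Lars -0.51 (0.0024), Hars -0.39 (0.0020), Vars -0.38 (0.029), Kars -0.25 (0.022) and Qars 0.37 (0.029). Mitochondrial values were Ears2 -0.60 (0.046), Mars2 -0.50 (0.031) and Yars2 -0.40 (0.013).

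Single libraries stood far from the other 3 of their group, with a gap above Dixon's critical value, in 10 of 216 checks, where chance gives about 1 in 20. In KO LPA replicate 2, Farsa was at 39.5 CPM with the others at 33 to 33.5, Gars at 65.4 with the others at 53.0 to 53.2, Iars at 79.5 with the others at 61.8 to 64.3, and Ears2 at 4.69 with the others at 3.52 to 3.71. In KO LPA replicate 4, Rars2 was at 12.9 CPM with the others at 15.9 to 16.3. Qars was at 113 CPM in WT LPA replicate 3 with the others at 87.1 to 89.2. In KO Cont replicate 2, Pars2 was at 5.97 CPM with the others at 4.26 to 4.47. In WT Cont replicate 1, Hars was at 50.2 CPM with the others at 45.9 to 46.6 and Aars2 at 6.04 with the others at 5.33 to 5.39, and in WT Cont replicate 4 Iars2 was at 55.2 with the others at 58.4 to 59.1. No cause was tested.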

How the results depend on the processing

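The count of called members moved by more than 1.5 times under these alternatives: with LPA in KO it was 1 (Vars), 0 under library totals and 0 in a fit of only the compared groups. For KO LPS against WT LPS it was 0, 2 under library totals (Iars 0.33 and Lars 0.29) and 2 in a fit of only the compared groups (Iars 0.27 and Lars 0.23). Leaving out each library in turn gave 0 to 1 members with LPA in KO, 13 to 20 with LPA in WT, 26 to 28 with LPS in KO, 28 to 30 with LPS in WT, 0 for KO Cont against WT Cont, 20 to 25 for KO LPA against WT LPA, 0 for KO LPS against WT LPS, 13 to 20 for the LPA interaction, 0 for the LPS interaction, and 28 to 30 (KO) and 22 to 28 (WT) for LPA against LPS.

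With the replicate block, called members were 1 with LPA in KO and 22 in WT, 28 with LPS in KO and 30 in WT, 20 for the LPA interaction, 30 (KO) and 29 (WT) for LPA against LPS, and 19 for KO LPA against WT LPA, whose libraries share only a number; there Farsb, Nars, Hars2, Mars2 and Vars2 were not called. For LPS in WT and for LPA against LPS in WT, whether the numbers pair the libraries is unclear. Members gained where the numbers pair the libraries stand beside their results.

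Of 5856 alternative values of 183 named changes, 5607 kept direction and side of the threshold, 222 lost the call, 2 gained it and 25 changed sign. Under library totals, signs changed with LPS in KO for Nars (-0.18) and Ears2 (-0.04), and with LPS in WT for Iars (-0.18), Lars (-0.02), Mars (-0.14), Nars (-0.32), Ears2 (-0.12) and Lars2 (-0.18). For LPA against LPS they changed in KO for Farsb (0.33), Nars (0.13) and Vars (0.14), and in WT for Eprs (0.23), Hars (0.03), Lars (0.30), Nars (0.36), Tars (0.22), Lars2 (0.21) and Yars2 (0.12). Relative to the TMM scale, library totals lower all values of LPS libraries against Cont, as TMM factors were 0.739 to 0.840 with LPS and 1.11 to 1.16 in Cont. Which of these scalings is nearer to the amounts in the cells was not tested. The LPA change of Wars in WT, 0.00, was -0.05 under library totals and -0.07 to -0.01 with 4 single libraries left out (-0.05 and -0.06 among them, and up to 0.08 without WT Cont replicate 2), and that of Wars2, -0.03, ran from -0.09 to 0.05 with single libraries left out, at 0.05 and 0.03 where it changed sign. The cause was not tested. The lowest members had 17 to 66 counts in LPS libraries, which limits what single libraries show.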
